A study of Rattus norvegicus with 18 samples.

Results

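Acetylcholine receptors of the basolateral amygdala (BLA) were examined through 8 genes that the RNA sequencing table holds under the symbols Chrm1, Chrm2, Chrm3, Chrna3, Chrna4, Chrna5, Chrna7 and Chrnb2. They were taken by symbol, as 8 of the 19113 genes in the table, and comprise 3 muscarinic and 5 nicotinic receptor genes. Their values are those of 18 BLA micropunch libraries, 1 library per rat with no pooling, from adult male Sprague-Dawley rats that were 8 weeks old on arrival. Single-housed rats (SH, n = 6) lived alone throughout. Rats in environmental enrichment (EE, n = 6) spent their active phase with cagemates, 10 rats to a large multi-level cage with toys, and the day alone. Enrichment removal rats (ER, n = 6) had 4 weeks of the same enrichment followed by single housing around the clock, and brains of all groups were taken 2 weeks after that removal. Enriched rats shared cages, so that the spread between rats does not cover the spread between cages. Enriched and removed rats were each compared with SH rats (EEvSH and ERvSH) and with each other (ERvEE), the first group named being the numerator.

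Acetylcholine reaches the BLA from the basal forebrain, in one of the densest cholinergic inputs of the forebrain, and acts there on receptors of 2 kinds. Muscarinic receptors are single proteins coupled to G proteins: Chrm1 and Chrm3 encode the M1 and M3 receptors, which act through Gq and phospholipase C and close the M-current potassium channels, and Chrm2 encodes the M2 receptor, which acts through Gi, opens GIRK potassium channels and often sits on axon terminals. Nicotinic receptors are channels built from 5 subunits. Chrna4 and Chrnb2 encode the alpha4 and beta2 subunits of the main high-affinity receptor of the brain, Chrna5 an accessory subunit that joins it, Chrna7 a subunit that forms calcium-permeable channels of its own, and Chrna3 a subunit best known from autonomic ganglia and the habenula. The values are reads per gene divided by the size factor of each library, as the authors deposited them, and are called normalized reads here. They are not corrected for gene length and serve to compare rats, not genes.

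In the RefSeq annotation of the rat (build GRCr8), all 8 genes had a promoter sequence, of which the 250 bases ahead of the annotated start were read. Of 33465 such windows of annotated genes, 30.5% hold a GC box (GGGCGG or its reverse complement CCGCCC) and 5.59% an E-box (CACGTG, its own reverse complement). The window of Chrna5 held 4 GC boxes and that of Chrna4 3, a number reached in 7.41% of all windows, while Chrna3 had 2, Chrm1 none and the other genes 1 each. An E-box was found ahead of Chrna3 and Chrna7. CpG dinucleotides numbered 26 or 27 for Chrna4, Chrna5 and Chrna7, 17 and 19 for Chrm3 and Chrna3, and 7 to 10 for Chrm1, Chrm2 and Chrnb2, against a median of 5 over all windows. The windows of 4 genes are shown because the results below turn on these genes: Chrm2, Chrna7 and Chrnb2 varied together between rats and Chrm3 varied apart from them. GC boxes and the E-box are in capitals, and a match of letters is no proof of a binding site.
Chrm2, chr4:65982200-65982449, plus strand: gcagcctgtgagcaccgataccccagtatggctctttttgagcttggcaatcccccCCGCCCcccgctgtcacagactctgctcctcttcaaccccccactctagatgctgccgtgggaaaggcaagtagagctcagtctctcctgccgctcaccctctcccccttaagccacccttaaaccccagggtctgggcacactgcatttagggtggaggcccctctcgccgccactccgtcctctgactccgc
Chrna7, chr1:126249130-126249379, minus strand: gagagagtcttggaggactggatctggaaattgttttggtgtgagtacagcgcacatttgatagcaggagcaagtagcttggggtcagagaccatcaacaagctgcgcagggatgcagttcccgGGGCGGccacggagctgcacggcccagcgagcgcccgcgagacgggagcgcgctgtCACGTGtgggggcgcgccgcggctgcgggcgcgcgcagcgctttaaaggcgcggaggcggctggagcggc
Chrnb2, chr2:177487307-177487556, minus strand: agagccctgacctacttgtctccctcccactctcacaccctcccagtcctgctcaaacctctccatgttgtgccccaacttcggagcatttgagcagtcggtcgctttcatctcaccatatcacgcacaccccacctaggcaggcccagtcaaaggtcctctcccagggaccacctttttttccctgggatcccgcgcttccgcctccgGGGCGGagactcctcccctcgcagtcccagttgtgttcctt
Chrm3, chr17:64696677-64696926, plus strand: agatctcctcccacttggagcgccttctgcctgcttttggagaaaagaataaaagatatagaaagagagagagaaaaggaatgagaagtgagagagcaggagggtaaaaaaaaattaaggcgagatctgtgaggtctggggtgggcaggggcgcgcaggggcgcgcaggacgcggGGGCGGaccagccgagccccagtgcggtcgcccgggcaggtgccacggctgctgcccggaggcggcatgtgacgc

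Neither the 8 receptor genes nor any other tested gene passed the test in EEvSH, ERvSH or ERvEE. All 8 were above a mean of 1 normalized read and were tested among 18172 genes with limma on log2(normalized reads + 1), with p-values adjusted over all genes by the Benjamini-Hochberg method. At an adjusted p under 0.05, 0% of the tested genes were called in EEvSH, ERvSH and ERvEE, and the smallest adjusted p was 0.694, 0.567 and 0.624. On reads recovered from the values, edgeR called 0 genes in each contrast and DESeq2 called 1, 2 and 2, none of them a receptor gene. An unadjusted p under 0.05 was reached by 5.87% of tested genes for EEvSH, 7.89% for ERvSH and 3.66% for ERvEE. Among the receptor genes it was reached in ERvSH alone, by Chrm1, Chrna7 and Chrnb2, 3 of 8 and all higher in ER, where 4.57% of tested genes were higher at that p. The groups of a contrast did not overlap for 0.171%, 0.292% and 0.215% of tested genes, none of them one of these 8. Recovered reads ran from 17753797 to 23450276 per library. SH 1 and SH 3 stood apart from the rest on the first principal component, which carries 20.4% of the variance, SH 3 at −137 and SH 1 at −45.1 against −0.220 to 21.7 for the other libraries. Values without SH 1 and SH 3, which leaves 4 SH rats, are therefore given beside the main results. In that fit an unadjusted p under 0.05 was reached by 8.35% of tested genes for EEvSH, 6.45% for ERvSH and 7.84% for ERvEE, and 0 genes were called. ERvEE estimates are the same without SH 1 and SH 3, and only their SE and p move, since 1 model of 3 groups shares the spread. All 10 markers of BLA excitatory neurons, among them Slc17a7 and Camk2a, were above 0 in every library. Of 10 markers of inhibitory neurons 9 were above 0 in every library, and Npy was listed at 0 in 17 libraries. Why Npy was at 0 was not tested, and its values are not taken as a measure of Npy expression.

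**Figure D1:**
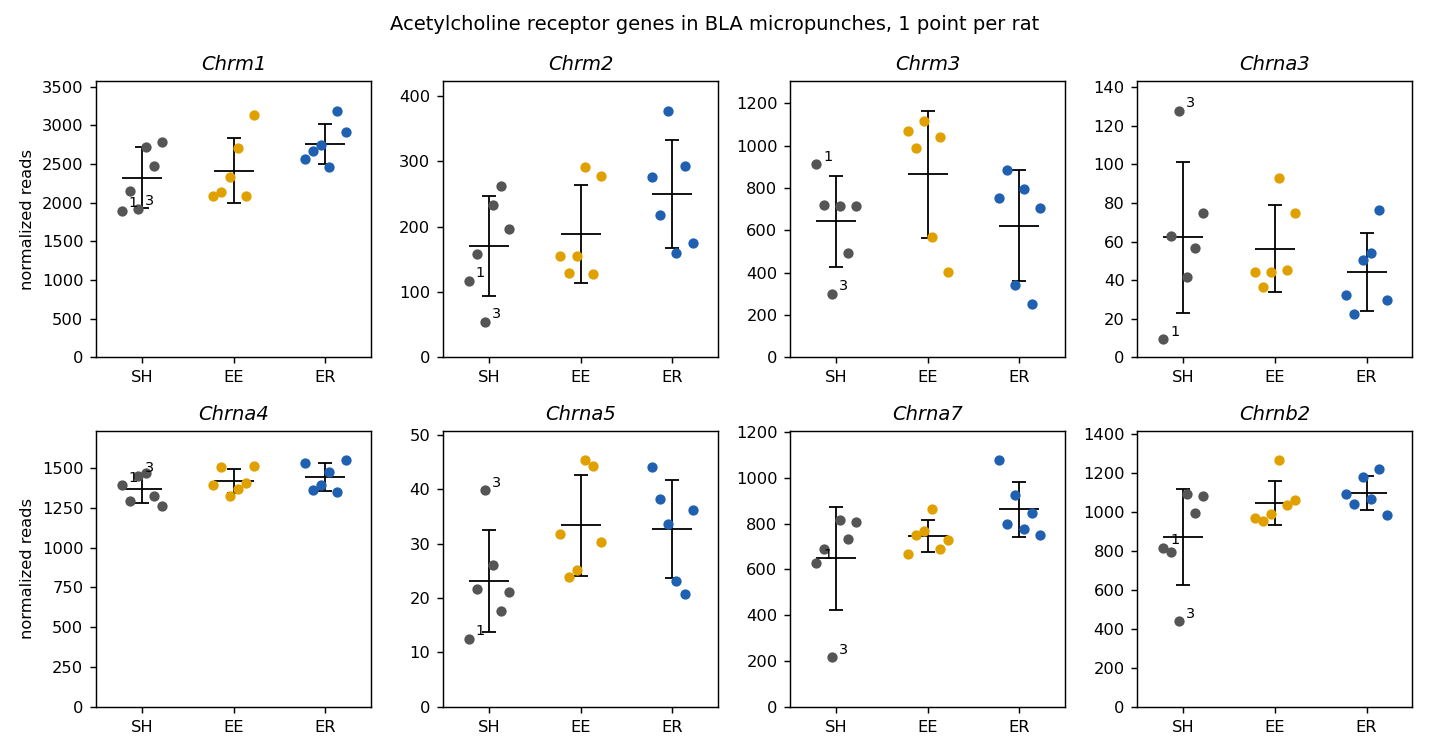
Normalized reads of the 8 receptor genes (vertical axes, from 0, each gene on its own scale) in SH, EE and ER rats, 1 point per rat, with bars for the mean and SD of 6 rats and with SH 1 and SH 3 numbered. The groups overlap for all 8 genes, Chrna4 keeps between 1264 and 1548 in every rat, and SH 3 lies alone at 216 for Chrna7.

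Chrm1, the M1 receptor gene (ENSRNOG00000018385), had the highest median in ER rats. Its lowest, median and highest values were 1892, 2311 and 2785 normalized reads in SH rats. In EE rats they were 2083, 2237 and 3131, and in ER rats 2459, 2707 and 3190. Every ER rat thus lay above the SH median, and above the EE median, while the groups still overlapped. Group means were 2323 ± 392 (SD, n = 6), 2413 ± 423 and 2757 ± 264 for SH, EE and ER. In ERvSH the log2 fold change was 0.26 (SE 0.11), with an unadjusted p of 0.0352 and an adjusted p of 0.567 by limma. It was 0.20 (SE 0.11) in ERvEE and 0.05 (SE 0.11) in EEvSH. Without SH 1, the lowest SH rat, and SH 3, the value of ERvSH was 0.13 (SE 0.11, unadjusted p = 0.254) and that of EEvSH −0.08 (SE 0.11). The unadjusted p of ERvEE was then 0.0454 (adjusted p = 0.629 by limma), in a fit where 7.84% of tested genes were under 0.05. The summed markers of BLA excitatory neurons also lay above the SH and EE medians in every ER rat. Their lowest ER sum was 79294, against medians of 71473 in SH and 72168 in EE, and their part in the Chrm1 values was not tested.

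Chrm2, the M2 receptor gene (ENSRNOG00000046972), ranged from 53.7 to 262 normalized reads in SH rats, with a median of 177. EE rats ranged from 127 to 291 around a median of 154, and ER rats from 159 to 377 around 247. Low and high rats were found in each group, and the lowest of all was SH 3. The log2 fold change was 0.66 (SE 0.33, unadjusted p = 0.0607 and adjusted p = 0.567 by limma) in ERvSH and 0.43 (SE 0.33) in ERvEE. Without SH 3 the value of ERvSH was 0.36, and without SH 1 and SH 3 it was 0.19 (SE 0.26). A lncRNA gene and the microRNA gene Mir490 overlap Chrm2 in RefSeq, and reads on them cannot be told from those of Chrm2 where counting did not use strand (not given in the sources used here).

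Chrm3, the M3 receptor gene (ENSRNOG00000049410), varied widely between the rats of each group. In SH rats its values were 300, 491, 714, 715, 722 and 912 normalized reads. In EE rats they were 405, 570, 990, 1040, 1071 and 1117, and in ER rats 249, 342, 703, 754, 797 and 887. Each group held rats on both sides of a gap: SH 3 and SH 5, EE 4 and EE 6, and ER 3 and ER 5 were low, and the remaining 4 rats of each group were at 703 or above. The gaps lay at different levels in the 3 groups. Over all rats the low values ran up to 570 and the others began at 703, and whether the rats form separate classes was not tested. The 4 highest values of all 18 rats were those of the other EE rats. Medians were 714, 1015 and 729 for SH, EE and ER, and log2 fold changes were 0.42 (SE 0.33, unadjusted p = 0.221) in EEvSH, −0.10 (SE 0.33) in ERvSH and −0.52 (SE 0.33, unadjusted p = 0.130) in ERvEE, with adjusted p of 0.751, 0.928 and 1.00 by limma. The 95% interval of the last runs from −1.22 to 0.17. Single rats moved these values: EEvSH was 0.22 without SH 3, and ERvEE was −0.29 without ER 5 and −0.72 without EE 6 (unadjusted p = 0.0374). With both SH 1 and SH 3 left out EEvSH was 0.31 and ERvSH −0.21. In a principal component analysis of all tested genes, the same 6 low rats had the 6 highest scores on the second component, which carries 9.58% of the variance. At the other end of this component SH 1 stood apart at −73.1, with EE 5 next at −31.0, although SH 1 was not among the 4 rats highest in Chrm3. Chrm3 is itself 1 of the genes in that analysis.

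Chrna7, the gene of the alpha7 subunit (ENSRNOG00000010853), was close to even in most rats. The 5 SH rats other than SH 3 had 628 to 817 normalized reads, EE rats 669 to 864 with a median of 739, and ER rats 750 to 1076 with a median of 821. SH 3 stood alone at 216. With this rat in the group the SH mean was 648 ± 223 (SD, n = 6), against 744 ± 69.2 in EE and 861 ± 122 in ER, and the log2 fold change of ERvSH was 0.52 (SE 0.23, unadjusted p = 0.0353, adjusted p = 0.567 by limma). Without SH 3 it was 0.23, and without SH 1 and SH 3 0.17 (SE 0.10, unadjusted p = 0.0887). EEvSH went from 0.31 (SE 0.23) to −0.03 (SE 0.10) without the pair. ERvEE stayed at 0.20 with SE 0.23 and, without the pair, SE 0.09. This gave an unadjusted p of 0.0267 and an adjusted p of 0.629 by limma, in a fit where 7.84% of tested genes were under 0.05.

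Chrnb2, the gene of the beta2 subunit (ENSRNOG00000020778), had values of 438 to 1091 normalized reads in SH rats with a median of 905. EE rats had 951 to 1264 with a median of 1012, and ER rats 984 to 1219 with a median of 1080. SH 1, SH 2 and SH 3 lay below every EE and ER rat, and SH 4, SH 5 and SH 6 lay among them. In ERvSH the log2 fold change was 0.39 (SE 0.16), the smallest unadjusted p of the 8 genes at 0.0240, with an adjusted p of 0.567 by limma. It was 0.21 without SH 3 and 0.16 (SE 0.09, unadjusted p = 0.113) without SH 1 and SH 3. EEvSH was 0.32 (SE 0.16, unadjusted p = 0.0597) with all rats and 0.08 (SE 0.09) without the pair.

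Chrna4, whose alpha4 subunit pairs with beta2 (ENSRNOG00000011202), was the steadiest of the 8 genes. Its lowest, median and highest values were 1264, 1359 and 1470 normalized reads in SH rats, 1323, 1397 and 1512 in EE rats and 1351, 1433 and 1548 in ER rats. SH 1 and SH 3 lay inside the range of the other SH rats. Log2 fold changes were 0.05, 0.08 and 0.03 (SE 0.06 each) in EEvSH, ERvSH and ERvEE, and the 95% intervals lay between −0.10 and 0.21. EEvSH was 0.08 and ERvSH 0.11 (SE 0.06 each) without the pair. The ratio of Chrna4 to Chrnb2, which can be compared between rats although both genes lack a length correction, was 1.17 to 3.31 in SH, 1.08 to 1.58 in EE and 1.11 to 1.57 in ER rats. Its highest value was that of SH 3, where Chrnb2 was low and Chrna4 was not. Col20a1 overlaps Chrna4 in RefSeq and had 52.1 to 104 normalized reads.

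The accessory subunit gene Chrna5 (ENSRNOG00000013610) and Chrna3 (ENSRNOG00000013829), which lie next to each other and to Chrnb4 in RefSeq, were read at low depth. Chrna5 ranged from 12.5 to 39.8 normalized reads in SH rats (median 21.4), from 23.9 to 45.3 in EE (median 31) and from 20.7 to 44.0 in ER (median 34.8). Counting alone gives a coefficient of variation of 21.8% in SH, where the rats varied by 40.3%. Apart from SH 3, the SH rats lay at 12.5 to 26. The log2 fold change of Chrna5 was 0.55 (SE 0.28, unadjusted p = 0.0596) in EEvSH and 0.51 (SE 0.28, unadjusted p = 0.0775) in ERvSH, with adjusted p of 0.749 and 0.567 by limma. It was 0.57 (SE 0.27, unadjusted p = 0.0471) and 0.54 (SE 0.27, unadjusted p = 0.0621) without SH 1 and SH 3 together, where 8.35% of tested genes were under 0.05 in EEvSH. Left out singly, these rats moved it in opposite directions: EEvSH was 0.40 without SH 1 and 0.72 without SH 3, and ERvSH 0.36 and 0.68. Chrna3 ranged from 9.37 in SH 1 to 128 in SH 3, with medians of 59.8, 44.7 and 41.3 in SH, EE and ER. Its log2 fold change in ERvSH, −0.27 (SE 0.45), was −0.72 without SH 1, 0.0030 without SH 3 and −0.50 (SE 0.32) without both. In RefSeq, lncRNA genes overlap Chrna3 and Chrm3, and the pseudogene Zc3h15-ps2 lies within Chrna5.

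**Figure D2:**
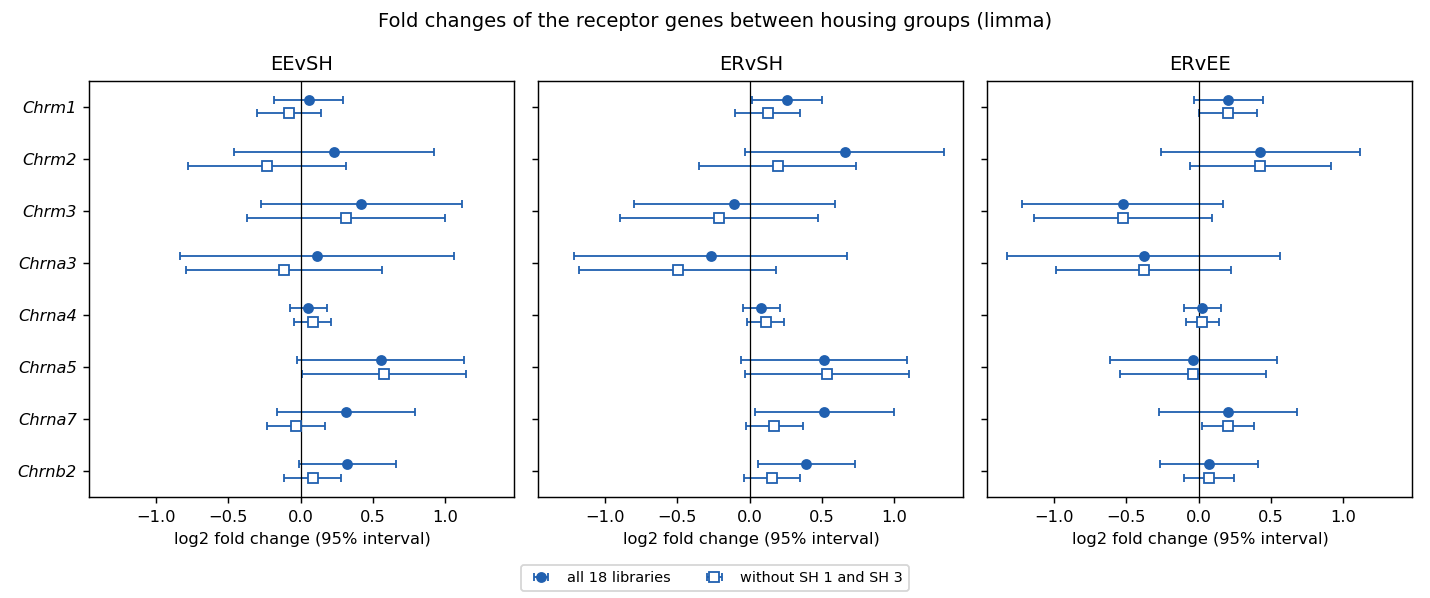
Log2 fold changes of the 8 receptor genes with 95% intervals from limma in EEvSH, ERvSH and ERvEE (horizontal axes, log2 scale), with filled circles for all 18 libraries and open squares without SH 1 and SH 3. In ERvSH the values of Chrm2, Chrna7 and Chrnb2 move from 0.66, 0.52 and 0.39 to 0.19, 0.17 and 0.16 when the pair is left out, and Chrna4 keeps the narrowest intervals.

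Rats of the same group differed far more in some of these genes than in others. The within-group SD of log2 values was 0.65 for Chrm3, larger than that of 98.2% of the 1000 genes nearest to it in mean, whose median SD was 0.19. Without SH 1 and SH 3 it was 0.62, above 99.4% of such genes. Chrm2 (0.63, above 94.0%) and Chrna3 (0.86, above 93.3%) also lay high, at 0.47 (above 96.6%) and 0.54 (above 81.2%) without the pair. Chrm3 was thus among the most variable genes of its level with or without the pair. For Chrna7 the SD was 0.44 (above 92.2%) with all libraries and 0.16 (above 64.8%) without the pair, and for Chrnb2 0.30 (above 84.6%) and 0.16 (above 73.2%). Chrm1 had an SD of 0.21 (above 75.9%). Chrna4 lay at the other end, with 0.08, above 5.4% of genes of its level and 21.3% without the pair. Chrna5, at 0.45, lay above 19.3%. These are descriptions of where the genes lie and not tests.

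**Figure D3:**
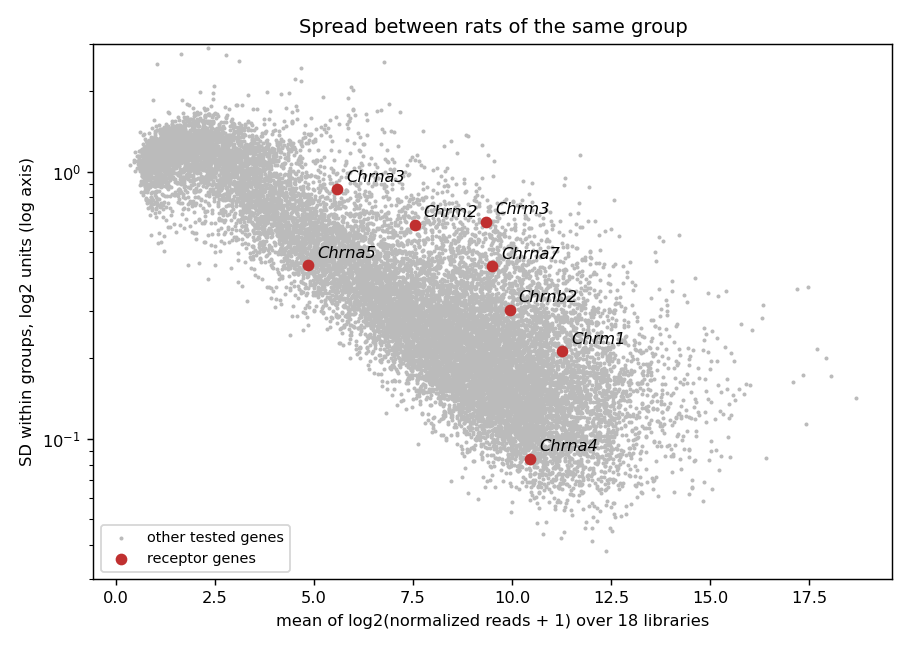
Within-group SD of log2(normalized reads + 1) (vertical, log axis) against the mean over 18 libraries (horizontal) for all tested genes in grey and the 8 receptor genes in red. Chrm3, at an SD of 0.65, lies near the top of the genes of its level and Chrna4, at 0.08, near the bottom.

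Of 28 pairs of the 8 genes, correlated over 18 libraries after each value was taken as its deviation from the group mean, 6 had an adjusted p under 0.05 for both Pearson's r and Spearman's rho, adjusted over the 28 pairs by the Benjamini-Hochberg method from 100000 permutations within groups. Chrm2, Chrna7 and Chrnb2 rose and fell together. Chrm2 and Chrnb2 had r = 0.857 (permutation p = 0.00012, adjusted p = 0.00336) and rho = 0.783 (permutation p = 0.00042, adjusted p = 0.00742). Chrna7 and Chrnb2 had r = 0.924 (permutation p = 0.00066, adjusted p = 0.00539) and rho = 0.767 (permutation p = 0.00082, adjusted p = 0.00742). Chrm2 and Chrna7 had r = 0.794 (permutation p = 0.00065, adjusted p = 0.00539) and rho = 0.701 (permutation p = 0.00106, adjusted p = 0.00742). How large a share of all pairs of tested genes passes the same test was not computed, so the count cannot be read as particular to receptor genes. Each of these 3 genes had a higher r with a gene picked for its high r. These were Nt5dc3 for Chrm2 (0.963), Gabrb2 for Chrna7 (0.978) and Adcy1 for Chrnb2 (0.975). Chrm1 joined Chrm2, at r = 0.744 (permutation p = 0.00119, adjusted p = 0.00666) and rho = 0.763 (permutation p = 0.0009, adjusted p = 0.00742), and Chrnb2, at r = 0.629 (permutation p = 0.00478, adjusted p = 0.0223) and rho = 0.655 (permutation p = 0.00835, adjusted p = 0.0390). Chrm3 ran against Chrna3, at r = −0.701 (permutation p = 0.00077, adjusted p = 0.00539) and rho = −0.754 (permutation p = 0.00146, adjusted p = 0.00818). With the 2 rats left out that lay farthest from the median of the first gene of each pair, r was 0.745 for Chrm2 and Chrnb2, 0.696 for Chrna7 and Chrnb2, 0.635 for Chrm2 and Chrna7, 0.736 for Chrm1 and Chrm2, 0.665 for Chrm1 and Chrnb2, and −0.576 for Chrm3 and Chrna3. Chrna4 and Chrna5 took part in none of the 6 pairs.

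These relations depended in part on SH 1 and SH 3. With 1 library left out at a time, SH 3 included, 5 of the 6 pairs passed for r in all 18 omissions, Chrm1 with Chrnb2 being the exception. Without SH 1 and SH 3 together, 4 pairs passed for r and 7 for rho. Of the 4 for r, 2 also passed with all libraries: Chrm2 with Chrnb2 (r = 0.709, adjusted p = 0.0347) and Chrm3 with Chrna3 (r = −0.749, adjusted p = 0.0347, with rho = −0.588 and adjusted p = 0.106). Chrna7 with Chrnb2 fell to r = 0.610 and Chrm1 with Chrm2 to r = 0.675, both just short of the threshold at an adjusted p of 0.05003, with rho of 0.688 and 0.703 that passed (adjusted p = 0.0309 each). Chrm1 with Chrnb2 was at r = 0.632 (adjusted p = 0.0634, with rho = 0.727 and adjusted p = 0.0309) and Chrm2 with Chrna7 at 0.602 (adjusted p = 0.0710). Without the pair, Chrm3 also ran against Chrm2 (r = −0.776, adjusted p = 0.0347) and against Chrm1 (r = −0.697, adjusted p = 0.0347), where with all libraries r was −0.232 and −0.435. SH 3 alone had little of Chrm2 and of Chrm3 at once, at 53.7 and 300 normalized reads. In the other low rats for Chrm3, Chrm2 was at 262 to 377. The ratio of Chrm3 to Chrm2 ran from 0.852 in ER 5 to 8.21 in EE 5. With SH 3 left out alone 12 pairs passed for r, and with any other single library left out 5 or 6 did. The pair of Chrm1 and Chrnb2 lost its call without SH 4, SH 5 or SH 6, at adjusted p of 0.0940, 0.0607 and 0.0821.

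**Figure D4:**
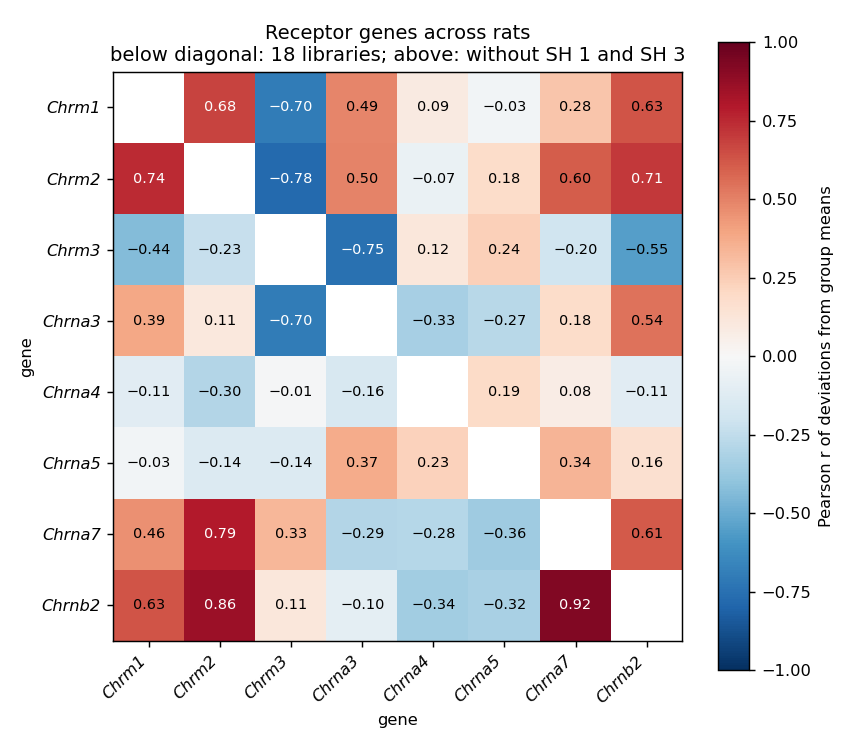
Pearson r between receptor genes over rats, from deviations from group means of log2 values, below the diagonal for 18 libraries and above it for 16 libraries without SH 1 and SH 3, with red for positive and blue for negative values. Chrna7 and Chrnb2 reach 0.92 with all libraries and 0.61 without the pair, and Chrm3 and Chrm2 go from −0.23 to −0.78.

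Scores of cell type and region markers varied with some of the receptor genes between rats. Of 88 relations between a receptor gene and the mean z-score of a list of cell type or region markers, 8 passed for r and rho, adjusted over the 88. The share of all tested genes that passes against the same lists was not computed, so these relations cannot be read as particular to receptor genes. Chrm3 went with glial lists: oligodendrocyte precursors (r = 0.829, adjusted permutation p = 0.00546, rho = 0.800), microglia (r = 0.813, adjusted permutation p = 0.00546, rho = 0.864), myelinating oligodendrocytes (r = 0.760, adjusted permutation p = 0.00546, rho = 0.738) and astrocytes (r = 0.747, adjusted permutation p = 0.00737, rho = 0.709). These held without SH 1 and SH 3, at r = 0.805, 0.884, 0.738 and 0.737. All 6, 8, 10 and 8 markers of these lists were above 0 in every library. The summed microglial markers ran from 4789 to 6998 normalized reads in SH, 4330 to 8165 in EE and 4246 to 6157 in ER, and those of myelinating oligodendrocytes from 81012 to 133759, 76419 to 186577 and 78605 to 120139. Oligodendrocyte precursors summed to 6080 to 7811, 5556 to 9707 and 5716 to 7316, and astrocytes to 78398 to 102238, 76275 to 100967 and 73908 to 83921. Chrm1 went the other way, with excitatory neurons of the BLA (r = 0.812, adjusted permutation p = 0.00629, rho = 0.800, summed markers 64838 to 84144 in SH, 63883 to 91820 in EE and 79294 to 86430 in ER) and against microglia (r = −0.787, adjusted permutation p = 0.00546, rho = −0.773). It also ran against astrocytes for r (−0.709, adjusted permutation p = 0.0310) and short of the threshold for rho (adjusted permutation p = 0.0508). Chrna3 ran against microglia for r (−0.610, adjusted permutation p = 0.0318) and short of the threshold for rho (adjusted permutation p = 0.09975). Chrm2 and Chrnb2 went with 5 markers of the claustrum and endopiriform nucleus, which border the BLA (r = 0.768 and 0.691, adjusted permutation p = 0.00546 and 0.00629, rho = 0.736 and 0.686), and fell short of the threshold without the pair (r = 0.696 and 0.571, adjusted permutation p = 0.0650 and 0.0822). Without the pair 12 of the 88 relations passed for r, where 10 did with all libraries, and 7 passed both ways. Chrm2 then ran against microglia (r = −0.791, adjusted permutation p = 0.0145), oligodendrocyte precursors (−0.772, adjusted permutation p = 0.0150) and myelinating oligodendrocytes (−0.760, adjusted permutation p = 0.0145), and Chrm1 against these lists and astrocytes at r from −0.829 to −0.902, while Chrm1 and excitatory neurons stayed at 0.813. The claustrum markers summed to 12909 to 28485 in SH, 11379 to 20138 in EE and 11451 to 24587 in ER. The sums are not the correlated score: SH 3 had the highest sum of these 5 markers and the lowest mean z-score. The part of these lists in the receptor values was not tested, and in a micropunch fewer cells of a type and less RNA per cell cannot be told apart.

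The genes most like each receptor gene were found by their r over the 18 libraries, for genes averaging 10 normalized reads or more, and are given as a description, since the highest of many values is high by choice and all genes share libraries and scaling. Chrm3 was followed by Zdhhc22 (r = 0.955), Vat1 (0.950) and Slc17a6 (0.947), a vesicular glutamate transporter known from thalamic and other subcortical neurons. Which cells of the punch gave the Slc17a6 reads was not tested. Slc17a6 ran from 255 to 1390 normalized reads in SH, from 214 to 1963 in EE and from 158 to 1323 in ER rats, and was lowest in ER 5, EE 6, SH 3 and ER 3, as Chrm3 was. Genes running against Chrm3, which were picked after their values were seen, were Slc1a1, a neuronal glutamate transporter (r = −0.939), Rasd2, a small GTPase known from the striatum (−0.938), and Dkk3 (−0.930). Rasd2 had 3633 normalized reads or more in these same 4 rats and at most 2992 in the others. Without SH 1 and SH 3 the r of these 6 genes were 0.974, 0.965, 0.947, −0.924, −0.926 and −0.938. Rasd2 is 1 of 10 markers listed for striatum and intercalated cells, and the list as a whole did not run against Chrm3. Its mean z-score had r = 0.370 with Chrm3 (adjusted permutation p = 0.451), and 0.386 without SH 1 and SH 3.

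**Figure D5:**
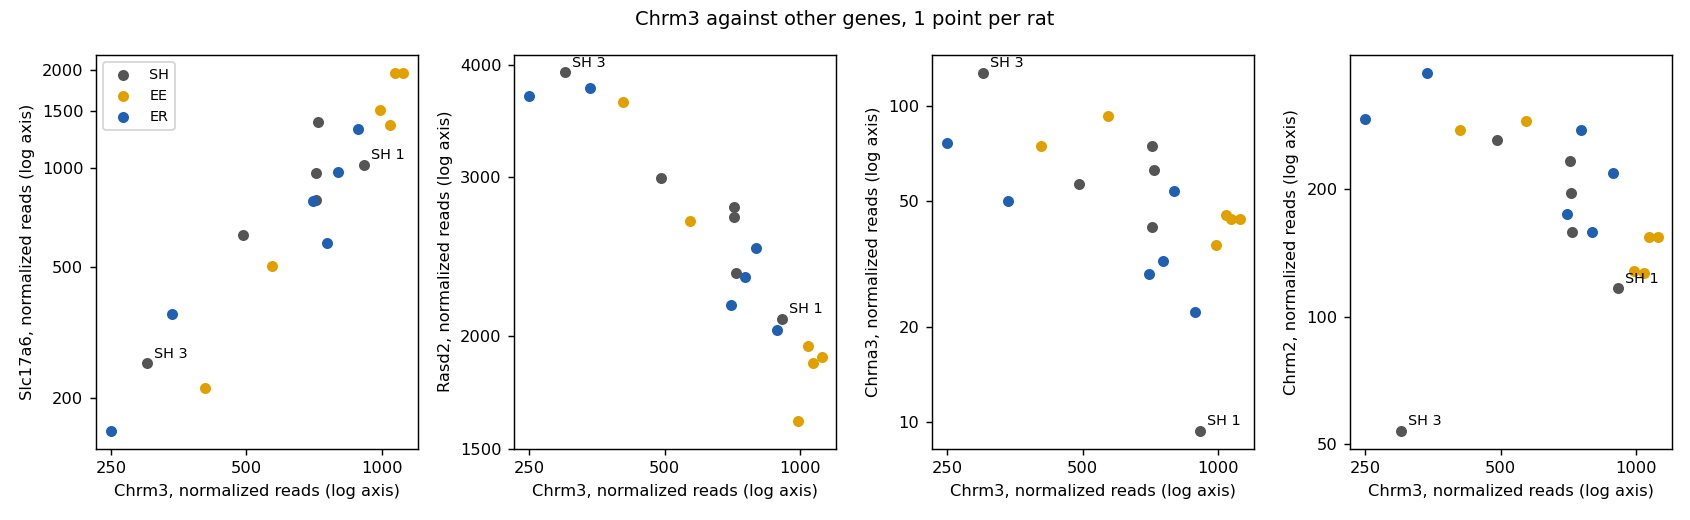
Normalized reads of Slc17a6, Rasd2, Chrna3 and Chrm2 (vertical, log axes) against those of Chrm3 (horizontal, log axis), 1 point per rat, coloured by group, with SH 1 and SH 3 named. Slc17a6 rises and Rasd2 falls along Chrm3 in all 3 groups (r = 0.947 and −0.938), and SH 3 is the rat that leaves the falling line of Chrm2.

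Chrm1 was most like App, the amyloid precursor gene (r = 0.921), Camkk2 (0.911) and Sh3gl2, the endophilin of presynaptic terminals (0.911), and ran against Acadl, an enzyme of fatty acid oxidation picked after its value was seen (−0.980). Chrm2 was most like Nt5dc3 (0.963), Dock4 (0.960) and Gria1, an AMPA receptor subunit (0.960). For Chrnb2 these were Adcy1, a calcium-stimulated adenylyl cyclase (0.975), Scn8a, a sodium channel (0.972), and Pcnx1 (0.969). All of these relations stayed at 0.877 or above, or at −0.974, without SH 1 and SH 3. Chrna7 was near to the GABA-A receptor gene Gabrb2 (0.978) and to AABR07015812.2 (0.973), which fell to 0.788 and 0.709 without the pair. Like Chrna7, Gabrb2 had its lowest value in SH 3, and ran from 60.2 to 729 normalized reads in SH, against 543 to 780 in EE and 452 to 858 in ER. The steady Chrna4 had weaker neighbours, Trappc6a (0.821), AABR07037307.1 (0.802) and Htr3a, a serotonin-gated channel (0.773), at 0.795, 0.791 and 0.791 without the pair. The low-count genes had Gga3 (0.872), Gml (0.861) and Dnajb13 (0.846) for Chrna3, which fell to 0.685, 0.572 and 0.486 without the pair, and Atp9b (0.789), Dnttip2 (0.772) and Ccnb1 (0.765) for Chrna5, at 0.702, 0.735 and 0.712 without it.

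Genes that make acetylcholine and load it into vesicles were read at low counts in the punches. The cholinergic input comes from the basal forebrain, outside the BLA, and which cells gave these reads was not tested. Chat, which makes acetylcholine, was listed at 0 in 2 SH libraries and reached 29.3 normalized reads at most among SH rats, 25.0 among EE and 11.7 among ER rats. Slc18a3, which loads it into vesicles, ran from 8.28 to 57.3 in SH (mean 28.3 ± 17.3, SD, n = 6), from 12 to 30.2 in EE (19.7 ± 8.64) and from 9.31 to 17.6 in ER (11.8 ± 2.97), with a log2 fold change of −0.99 (SE 0.38, unadjusted p = 0.0170, adjusted p = 0.567 by limma) in ERvSH and −0.53 (SE 0.37, unadjusted p = 0.168) without SH 1 and SH 3. Of the 7 markers of basal forebrain cholinergic neurons in the table, 4 were at 0 in some libraries, among them Chat in 2, Gbx1 in 7 and Lhx8 in 9. Slc5a7, the choline transporter of cholinergic terminals, was at a median of 100 for SH, 101 for EE and 98.7 for ER rats. Ache, which breaks acetylcholine down and is made by many cells, had means of 1630 ± 145, 1632 ± 114 and 1456 ± 184. Among 10 genes of synthesis, storage, uptake and breakdown, none was called, and the choline transporter Slc44a1 had unadjusted p of 0.0127 in EEvSH (log2 fold change 0.26, SE 0.10) and 0.0313 in ERvEE (−0.22, SE 0.10), and 0.0191 and 0.0276 without the pair. In ERvSH without the pair, 5 of the 10 genes were positive and 5 negative, and 2 had an unadjusted p under 0.05 (6.45% over all genes). These were Chat at −1.27 (SE 0.45, unadjusted p = 0.0114) and Ache at −0.23 (SE 0.08, unadjusted p = 0.0103), with an adjusted p of 0.757 each by limma. Chat rests on few reads.

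Other receptor genes and the proteins that act with receptors were described by lists. Of 13 other acetylcholine receptor genes 8 were in the table, and the median log2 fold change was −0.05, −0.18 and −0.003 in EEvSH, ERvSH and ERvEE, against 0.02, 0.01 and 0.003 over all tested genes. Among them Chrm4, a Gi-coupled receptor known from the striatum, had the lowest p, its medians being 925 normalized reads for SH, 634 for EE and 858 for ER, and log2 fold changes of −0.46 (SE 0.13, unadjusted p = 0.00259, adjusted p = 0.749 by limma) in EEvSH and 0.38 (SE 0.13, unadjusted p = 0.0107) in ERvEE. EEvSH was −0.42 (SE 0.14, unadjusted p = 0.00592) without SH 1 and SH 3. Without the pair the list medians were −0.13, −0.10 and −0.003. Chrm5 was then at −0.96 (SE 0.39, unadjusted p = 0.0233 by limma) in ERvSH. Chrna10, listed at 0 in 3 EE libraries, was at −1.51 (SE 0.65, unadjusted p = 0.0312 by limma) in EEvSH. Of 12 genes of nicotinic receptor assembly and of the prototoxins that bind these receptors, 3 had an unadjusted p under 0.05 in ERvSH, where 7.89% of all tested genes had one. The chaperone Ric3, which helps alpha7 to the surface, was at 0.27 (SE 0.10, unadjusted p = 0.0111), Lypd1 at −0.57 (SE 0.24, unadjusted p = 0.0258) and Rpsa at −0.34 (SE 0.16, unadjusted p = 0.0468). These were 0.10, −0.62 and −0.02 without SH 1 and SH 3, and of these 3 genes only Lypd1 kept an unadjusted p under 0.05 (0.0224). Ly6e, at 0.14 (SE 0.06, unadjusted p = 0.0407 by limma), also had one then, where 6.45% of all tested genes did. In EEvSH 2 genes had such a p (5.87% over all genes), Lypd6 at 0.51 (SE 0.19, unadjusted p = 0.0168) and Ric3 at 0.21 (SE 0.10, unadjusted p = 0.0439), at 0.34 and 0.04 without the pair. In ERvEE Lynx1 had one, at 0.21 (SE 0.10, unadjusted p = 0.0477, 3.66% over all genes). Without the pair the genes with such a p in EEvSH were Lypd6 (0.0290 by limma) and Rer1, at 0.16 (SE 0.06, unadjusted p = 0.00774 by limma), where 8.35% of all tested genes had one.

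Signalling genes behind the muscarinic receptors lay mostly above 0 in ERvSH with all libraries, and lay about evenly on both sides of 0 without SH 1 and SH 3. Of 17 genes of the Gq pathway and the M current 15 had positive log2 fold changes, as did 51.8% of all tested genes, with a median of 0.19 and 2 at an unadjusted p under 0.05 (7.89% over all genes), Gnaq at 0.61 (SE 0.29) and Dgkb at 0.23 (SE 0.11). Of 21 genes of the Gi pathway and GIRK channels 17 were positive, with a median of 0.19 and 6 at an unadjusted p under 0.05, all of them higher (4.57% over all genes), led by the G protein gene Gnao1 at 0.33 (SE 0.11, unadjusted p = 0.00694), the GIRK channel gene Kcnj3 at 0.49 (SE 0.22) and Adcy1 at 0.79 (SE 0.35). None was called. Without SH 1 and SH 3 the medians were 0.02 and 0.03, with 9 of 17 and 11 of 21 positive. An unadjusted p under 0.05 was then reached by 0 and 2 genes (6.45% over all genes). The 2 of the Gi list were 1 higher and 1 lower. Gnaq was then at 0.11, Dgkb at 0.13, Gnao1 at 0.13, Kcnj3 at 0.20 and Adcy1 at 0.27. In ERvEE 50.9% of all tested genes were positive. There 13 of 17 genes of the Gq list were positive with a median of 0.19, and 2 had an unadjusted p under 0.05 (3.66% over all genes), or 4 without the pair (7.84%), among them the M-current channel gene Kcnq5 at 0.37 (SE 0.15, unadjusted p = 0.0181, and 0.0124 without the pair), and in the Gi list 12 of 21 with a median of 0.03. In EEvSH the medians were 0.17 and 0.17 with all libraries, and −0.16 and 0.03 without the pair.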

How the data were processed

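BLA micropunches of 18 rats, 6 per group, gave polyadenylated, single-end reads of 50 bases. The authors aligned them with HISAT2, counted reads per gene and normalized with DESeq2; the deposited signal is reads divided by 1 size factor per library. Versions, build, annotation, counting tool and use of strand: not given in the sources used here. Low values are whole multiples of 1 step per library (100.0% of values up to 1000 reads whole within 0.01 reads), which gave 17753797 to 23450276 reads per library for the count tests. No sample column was left out.

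Genes with a mean above 1 (18172 of 19113) were fitted as log2(value + 1) with limma 3.58.1 in R 4.3.3, 1 model of 3 groups with an intensity trend, and adjusted by the Benjamini-Hochberg method at 0.05. Fold changes of low genes are understated on this scale. Correlations used deviations from group means and 100000 permutations within groups. Alternatives changed scaling (TMM, upper quartile), filter, pseudocount (0.1, 5), groups in the fit, test (edgeR 4.0.16 quasi-likelihood, DESeq2 1.42.0, limma-voom with quality weights), left out libraries and blocked on the replicate number. Those for the correlations were chosen after seeing the data. The fits were tested on simulated data.

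Named genes are the 8 receptor genes, the 3 genes most correlated with each, Chat, Slc18a3, Slc5a7, Ache and up to 3 genes per list and contrast with an unadjusted p under 0.05. The receptor genes and lists were chosen with earlier results of these data known. Of the list symbols 153 were matched by name, 1 by a RefSeq synonym, and 10 are not used here. Not every gene taken by this rule is reported here.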

Additional observations from a re-analysis of the deposited data

Results flagged for a closer look

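In 36 groups of 6 rats, those of the 8 receptor genes, Chat, Slc18a3, Slc5a7 and Ache, the gap between the most extreme rat and its nearest neighbour was set against the range of the group, with a critical share of 0.625. Chance alone passes it in about 1 of 20 groups. Chrna7 was at 216 normalized reads in SH 3, where the next SH rat had 628 and the gap took 0.686 of the range. Chrnb2 was at 1264 in EE 4, where the next EE rat had 1062 and the gap took 0.646. Slc18a3 was at 17.6 in ER 4, where the next ER rat had 11.7 and the gap took 0.710.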

How the results depend on the processing

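No receptor gene was called under any setting. Over 12 alternatives besides single omissions, 278 of 288 fold changes had the sign of the reported value, and with 1 library left out 419 of 432 did, with 0.346 as the smallest adjusted p of all of these. Without SH 1 and SH 3, EEvSH changed sign for Chrm1 (−0.079), Chrm2 (−0.23), Chrna3 (−0.12) and Chrna7 (−0.034). Sign also changed in EEvSH for Chrna3 with edgeR and with DESeq2 (−0.16 each), and with quality weights for Chrm1 (−0.10), Chrm2 (−0.26) and Chrna3 (−0.19), and for Chrna5 in ERvEE (0.058). Single omissions gave −0.024 to 0.11 for Chrm1, −0.065 to 0.39 for Chrm2 and −0.34 to 0.38 for Chrna3 in EEvSH, −0.31 to 0.13 for Chrm3 and −0.72 to 0.0030 for Chrna3 in ERvSH, and −0.13 to 0.079 for Chrna5 in ERvEE. The causes were not tested.

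DESeq2 called 1 gene in EEvSH (Aurkc), 2 in ERvSH (Aurkc and Ctxn3) and 2 in ERvEE (Ankrd55 and Ecel1), and single omissions gave 0 to 1 genes in ERvEE (LOC100360244 without EE 6); these were named after their values were seen. At an unadjusted p under 0.05, edgeR had 1073, 1404 and 665 genes in EEvSH, ERvSH and ERvEE and called 0. Voom with quality weights had 1564, 1386 and 1880, and called 0. Replicate numbers did not pair the rats: deviations of same-numbered rats correlated at −0.083 to 0.130, and 4 of 18 libraries were closest to their own number. With the replicate number as a block, 0 genes were called in each contrast, with 1009, 1304 and 669 at an unadjusted p under 0.05, and 7 pairs of receptor genes passed in place of 6. The number of pairs passing for r ran from 5 to 12 over single omissions, and was 4 without SH 1 and SH 3, where 7 passed for rho. Chrna5 and Chrna3 rest on 9 to 119 reads per rat, which limits their precision.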
